A study of Mus musculus with 8 samples.

Results

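The comparison described here sets CD4+ T cells that transcribed a mutant Foxp3 allele against the CD4+ T cells of the same genotype that did not. Members were chosen by their labels alone: the 3 arrays labelled CD4+, (delta)FoxP3(EGFP+) and the single array labelled CD4+, (delta)FoxP3(EGFP-), which are 4 of the 8 arrays of the series. The mutant allele, written delta in the labels, carried an EGFP reporter, its carriers were hemizygous males, and cells were separated by FACS on EGFP. The other 4 arrays, 3 labelled CD4+, FoxP3(EGFP+) and 1 labelled CD4+, FoxP3(EGFP-), came from mice with an EGFP-tagged wild-type (WT) allele and were used as a reference. The nature of the mutation, the age of the mice, any treatment, the number of animals behind an array and whether both EGFP fractions came from the same animals were not stated in the sources used. Every result below rests on 1 EGFP-negative array, so the spread in the tests came from the replicated EGFP-positive groups, and the lone array was assumed to vary as they did. Since the labels do not say that the EGFP-positive arrays came from separate animals, the p-values reflect only array-to-array spread, and that spread may be technical.

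Foxp3 is the transcription factor that defines regulatory T cells, the CD4+ T cells that restrain immune responses, and its gene lies on the X chromosome, so a hemizygous male has a single allele. Foxp3 maintains high levels of the interleukin-2 receptor alpha chain and of surface molecules such as CTLA-4 and GITR, and it holds down interleukin-2 and other cytokine genes. Mice without functional Foxp3 develop a fatal lymphoproliferative disease in which conventional CD4+ T cells become activated and divide. The series title speaks of precursors that lack a functional Foxp3 protein, which was not measured on these arrays. A reporter in the mutant allele marks cells that transcribe the gene, and the comparison addresses what still distinguishes those cells from their EGFP-negative neighbours.

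The arrays were on a common scale, with medians between 53.3 and 54.8 intensity units. Over 45037 probe sets, the mutant EGFP-negative array correlated with the mutant EGFP-positive arrays at r between 0.9824 and 0.9858, the mutant EGFP-positive arrays with each other at 0.9879 to 0.9912, and the mutant EGFP-negative with the WT EGFP-negative array at 0.9742. These correlations run across probe sets, which are not independent replicates. T cell markers were high throughout: the median of 6 measured marker genes was 12.01 to 12.07 log2 units on the mutant EGFP-positive arrays and 12.09 on the EGFP-negative array, and Cd4 read 11.35, 11.30 and 11.28 against 11.40.

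Foxp3 itself separated the mutant fractions most clearly, which the sort on a reporter in its mutant allele set in advance. For that reason Foxp3 checks the sort, here and in the counts and lists below, and is no independent result. Its log2 intensity was 11.10, 11.51 and 11.21 on the 3 mutant EGFP-positive arrays and 6.14 on the mutant EGFP-negative array. All 3 EGFP-positive values stood far above the single EGFP-negative value, a difference of 5.13 ± 0.20 (SE), or 35.1-fold, with an adjusted p of 0.00037 in limma. The reading on the arrays labelled WT EGFP-positive went against their label: it was 4.75 ± 0.11 (SD, n = 3) there and 4.52 on the WT EGFP-negative array. The position of the Foxp3 probe set relative to the mutation and the reporter was not stated in the sources used, so for the WT allele this reading does not check the sort. The list of regulatory T cell genes ran as those labels say. Of the 44 measured, Foxp3 included, 38 were called higher and 0 lower in the cells labelled WT EGFP-positive, with a median difference of 2.61. Over all genes 1.02% were called higher and 0.478% lower. The list was chosen with earlier results of these data known, so it is no independent check of the labels of the WT arrays. The directions taken below from these arrays rest on their labels.

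Across all probe sets the mutant comparison called 34, of which 8 were higher and 26 lower in the EGFP-positive cells (0.0755%, 0.0178% and 0.0577% of those tested, limma, adjusted p under 0.05). Counted by gene, with each gene read from its brightest probe set, 16 of 18193 were called (0.0879%), 4 higher (0.0220%) and 12 lower (0.0660%). At an unadjusted p under 0.05 1039 genes were higher (5.71%) and 955 lower (5.25%). Leaving out a single EGFP-positive array of either allele moved the gene count to between 2 and 5, except that without WT EGFP-positive replicate 2 it was 41. In the fit of the 4 mutant arrays alone, and with the title numbers as a block, Foxp3 was the 1 gene left, and of the 16 genes it alone was called under all 14 alternative settings.

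**Figure D1:**
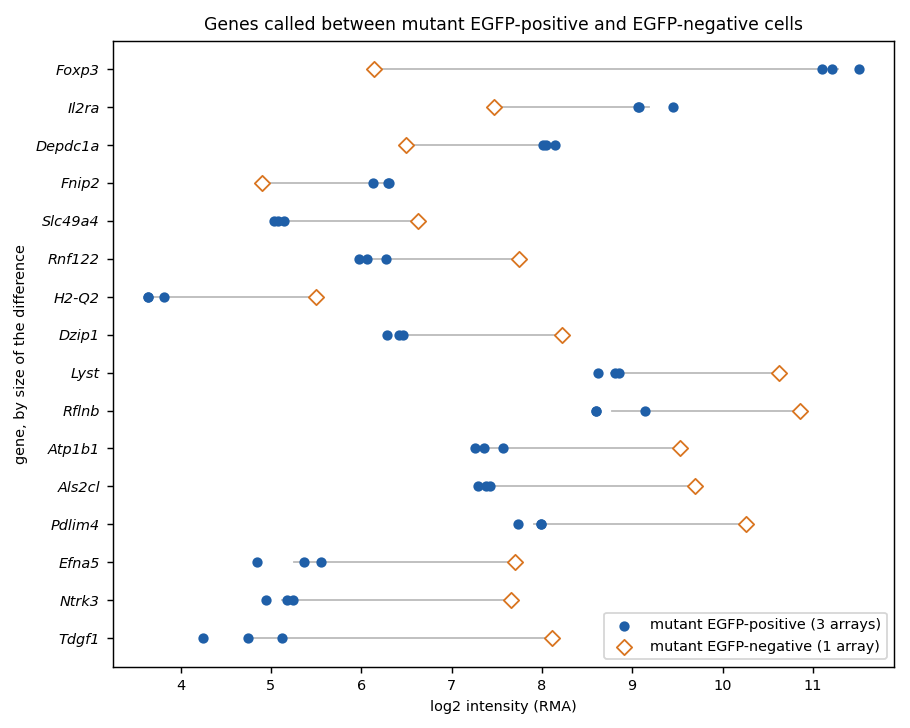
Log2 intensity of the 16 called genes, 1 row per gene ordered by the size of the difference, with a filled point for each of the 3 mutant EGFP-positive arrays, an open diamond for the single EGFP-negative array and a grey line from that array to the EGFP-positive mean. For every gene shown the 3 filled points lie on one side of the diamond, with Foxp3 farthest above it and Tdgf1 farthest below.

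Il2ra, the alpha chain that gives the interleukin-2 receptor its high affinity, was the other regulatory T cell gene that rose. It read 9.06, 9.45 and 9.07 in the EGFP-positive cells and 7.47 in the EGFP-negative cells. The groups did not overlap, and the difference was 1.72 ± 0.20 (SE), 3.29-fold, with a limma adjusted p of 0.046. In bulk samples of this kind, a larger share of cells of a type and more RNA per cell cannot be told apart. Its call was kept in 5 of 14 alternative settings, where the adjusted p ran from 0.021 to 0.34, while the difference stayed between 1.49 and 1.79. A second Il2ra probe set gave a difference of 1.26.

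Around the receptor, the list of interleukin-2 and STAT5 response genes had 2 of 19 measured members called higher, Foxp3 and Il2ra, against 0.0220% of all genes. The list was mixed, with a median difference of 0.20 against 0.02 over all genes. At an unadjusted p under 0.05, 7 members had a positive and 3 a negative difference, against 5.71% and 5.25% of all genes. Socs2, a feedback inhibitor induced by STAT5 and named here after its values were seen, read 9.64, 9.78 and 9.57 against 7.72. That difference of 1.94 ± 0.24 missed the threshold (limma adjusted p = 0.056). Cish, another such inhibitor, differed by 0.67, the beta chain Il2rb by 0.89 and Stat5a by 0.10, whereas Socs1 differed by -1.0 and Socs3 by -1.08. None of these passed the test. Il2, the cytokine itself, read 5.22, 5.07 and 5.51 in the EGFP-positive cells and 6.48 in the EGFP-negative cells, a difference of -1.21 ± 0.20 (limma adjusted p = 0.11). The interleukin-7 receptor chain Il7r gave 9.55, 11.43 and 9.92 against 11.25, so its groups overlapped.

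The other 2 genes that rose are not classical regulatory T cell genes. Depdc1a, a gene of dividing cells that acts in mitosis, read 8.05, 8.15 and 8.01 in the EGFP-positive cells and 6.50 in the EGFP-negative cells. It rose by 1.57 ± 0.18, 2.97-fold, with a limma adjusted p of 0.042, and its call held in 6 of 14 alternatives. Fnip2, which encodes a folliculin-binding protein, read 6.30, 6.13 and 6.31 against 4.90, a rise of 1.34 ± 0.16 (limma adjusted p = 0.049), with its call kept in 5 of 13 alternatives. Folds are given here only for genes whose means in both groups lay above the median intensity, since the arrays carried no detection calls, and Fnip2 did not meet that condition.

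Proliferation genes had positive differences in nearly all members of their lists, though none of those members was called. Of 49 measured cell cycle genes 0 were called by limma, 22 had an unadjusted p under 0.05 and a positive difference, against 5.71% of all genes, and none had one with a negative difference. In 47 of the 49 (95.9%) all 3 EGFP-positive arrays lay above the EGFP-negative array, against 32.1% of all genes, and the median difference was 0.80. Kif4, a mitotic kinesin, read 8.48, 8.48 and 8.38 against 7.25, a difference of 1.20 (limma adjusted p = 0.22). Mybl2, a transcription factor of cycling cells, read 8.17, 7.90 and 7.90 against 6.73, a difference of 1.26 with the same adjusted p. Mki67, the gene of the Ki-67 proliferation antigen, was already high in the EGFP-negative cells at 11.27 and read 11.95, 11.94 and 12.09 in the EGFP-positive cells. Cyclin D2 (Ccnd2) and cyclin D3 (Ccnd3) differed the other way, by -0.39 and -0.08. Among 33 DNA replication genes, 32 (97.0%) had all 3 arrays above, 0 were called, 22 had a positive difference at an unadjusted p under 0.05, and the median was 0.70. Gins1, a subunit of the replicative helicase, differed by 0.93 and thymidylate synthase (Tyms) by 1.41. A second Gins1 probe set differed by 0.23, and the 3 other Tyms probe sets by between -0.15 and 0.86. Pcna, the sliding clamp, differed by 0.25 from a level of 13.04. The genes of a list share arrays and cells, so these counts describe the 4 arrays and do not stand for independent observations. Over the 14 alternatives the median stayed between 0.71 and 0.88 for the cell cycle list and between 0.57 and 0.72 for the replication list. In the WT comparison the median difference was 0.71 for the cell cycle and 0.28 for the replication list, so positive medians were not particular to the mutant allele.

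Promoters of mitotic genes often hold a CCAAT box and a cell cycle homology region, and those of replication genes an E2F site. The sequences below are the 250 bases upstream of the RefSeq start (build GRCm38.p6, plus strand) of the called gene Depdc1a and of Kif4 and Mybl2, the named cell cycle genes, shown because these members rose or lay higher together. Capitals mark any match to CCAAT or its reverse complement ATTGG, to TTTGAA or TTCAAA, and to the E2F spellings TTTGGCGC and TTTCCCGC or their reverse complements. They lie at chr3:159495183-159495432, chrX:100625815-100626064 and chr2:163054385-163054634.
Depdc1a: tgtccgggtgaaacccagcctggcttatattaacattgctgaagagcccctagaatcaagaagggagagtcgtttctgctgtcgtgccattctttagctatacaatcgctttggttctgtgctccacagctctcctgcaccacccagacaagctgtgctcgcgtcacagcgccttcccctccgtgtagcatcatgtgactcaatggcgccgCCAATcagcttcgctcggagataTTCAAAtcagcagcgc
Kif4: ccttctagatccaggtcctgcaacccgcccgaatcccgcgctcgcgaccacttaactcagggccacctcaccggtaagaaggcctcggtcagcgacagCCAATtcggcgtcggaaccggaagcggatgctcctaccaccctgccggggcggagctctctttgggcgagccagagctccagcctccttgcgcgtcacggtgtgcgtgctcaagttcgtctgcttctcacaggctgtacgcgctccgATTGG
Mybl2: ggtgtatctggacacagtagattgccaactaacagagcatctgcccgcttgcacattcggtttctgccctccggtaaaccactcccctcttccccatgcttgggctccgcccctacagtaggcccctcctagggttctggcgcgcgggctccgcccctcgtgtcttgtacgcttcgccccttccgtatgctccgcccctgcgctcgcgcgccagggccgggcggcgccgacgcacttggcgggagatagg
The Depdc1a window holds CCAAT starting 39 bases and TTCAAA starting 16 bases before the start site. The Kif4 window holds CCAAT at 152 bases and ATTGG at 5 bases, and the Mybl2 window has no match to these letters. A CCAAT box in either orientation was present in 27 of 41 cell cycle genes with a window (65.9%), in 19 of 29 replication genes (65.5%) and in 37.5% of all 27025 genes. TTTGAA or TTCAAA was found in 31.7% of the cell cycle genes, 13.8% of the replication genes and 18.3% of all genes, and an E2F spelling in 2.44%, 13.8% and 1.51%. These are matches of letters and not binding sites, and sites with other spellings were not searched or counted.

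Among the 16 called genes 12 fell and 4 rose, whereas 52.9% of all genes had a positive difference. The largest fall was that of Tdgf1, which encodes the Nodal coreceptor Cripto. It read 5.12, 4.25 and 4.75 in the EGFP-positive cells and 8.11 in the EGFP-negative cells, a difference of -3.40 ± 0.29 (limma adjusted p = 0.021). The WT arrays had Tdgf1 at 4.89 in EGFP-positive and 5.18 in EGFP-negative cells, so among the 8 arrays the mutant EGFP-negative array stood apart. Efna5, the ephrin-A5 ligand of Eph receptors, showed the same arrangement: 5.37, 5.55 and 4.84 against 7.70, with 5.14 and 5.12 in the WT groups, and a fall of 2.44 on the log2 scale (limma adjusted p = 0.035). The other Efna5 probe set differed by -0.53. H2-Q2, an MHC class I gene with near-identical relatives whose probes may cross-hybridise, was low on every array, at 3.82, 3.64 and 3.64 against 5.50 (limma adjusted p = 0.049).

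Of the 12 genes that fell, 5 were also called lower in the WT comparison. Ntrk3, the neurotrophin-3 receptor, read 5.18, 5.24 and 4.95 against 7.66 and fell by 2.54 on the log2 scale (limma adjusted p = 0.0061). It was the most stable fall, called in 11 of 14 alternatives and in each of the 6 fits without 1 EGFP-positive array, but its 7 other probe sets differed by between -0.90 and 0.06. Pdlim4, an actin-associated PDZ and LIM protein, read 7.99, 7.74 and 7.99 against 10.26, which is 5.11-fold lower in the EGFP-positive cells (limma adjusted p = 0.029); the WT difference was -4.56. Als2cl, a relative of the Rab5 regulator alsin, was 5.05-fold lower at 7.29, 7.43 and 7.38 against 9.70 (limma adjusted p = 0.021), and its other probe set differed by -1.76. Rflnb, a filamin-binding protein, read 9.14, 8.60 and 8.60 against 10.86, and its 2 other probe sets differed by -1.97 and -1.09. Lyst, the lysosomal trafficking regulator, read 8.62, 8.81 and 8.85 against 10.63, a fall of 1.87 on the log2 scale. Its 2 other probe sets differed by -1.48 and -0.05. The adjusted p from limma was 0.042 for Rflnb and 0.026 for Lyst.

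Atp1b1, the beta subunit of the sodium-potassium pump, was the 1 called gene of the fixed list of genes with low levels in regulatory T cells. It read 7.36, 7.26 and 7.57 in the EGFP-positive cells and 9.53 in the EGFP-negative cells, 4.39-fold lower (limma adjusted p = 0.021), with its 4 other probe sets between -1.66 and 0.28. The cells labelled WT EGFP-positive were not low in Atp1b1, at 10.54 against 11.28 in WT EGFP-negative cells, a difference of -0.73. The remaining falls were those of Dzip1, a ciliary zinc-finger protein, by 1.83, Rnf122, a RING-type ubiquitin ligase, by 1.65, and Slc49a4, a lysosomal membrane transporter, by 1.55 on the log2 scale. Their limma adjusted p-values lay between 0.030 and 0.033. The 4 other Dzip1 probe sets differed by between -1.60 and 0.46. For Rnf122 and Slc49a4 the other probe set differed by -0.87 and -0.22. Apart from Foxp3 and Ntrk3, the calls of these genes were kept in 5 to 8 of their alternatives, and 0 of the 16 differences changed sign. In the title numbers the EGFP-negative array adjoins replicate 1 of the EGFP-positive arrays, and the difference within that pair had the sign of the whole for 16 of 16 genes, which follows from all 3 EGFP-positive arrays lying on one side.

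Some called probe sets belonged to genes whose brightest probe set was not called, and these were named after their values were seen. Swap70, an exchange factor for Rac, had 1 called probe set at 8.60, 8.73 and 8.56 against 7.25, a difference of 1.38, and its brightest probe set differed by 1.23 (limma adjusted p = 0.035 and 0.16). Sostdc1, a secreted BMP and Wnt antagonist, read 6.89, 6.18 and 6.45 against 9.24 on the called probe set (limma adjusted p = 0.029) and differed by -1.96 on the brightest. For Klk1, of the kallikrein family whose members are near-identical in sequence, 2 dim probe sets fell by 2.81 and 3.14 on the log2 scale while the brightest differed by 0.08, so no direction is assigned to the gene. Nacc2 likewise fell by 3.36 on the log2 scale on 1 probe set and differed by -0.11 on the brightest, and Amigo2 gave -2.14 and -0.11.

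Genes of the regulatory T cell signature were mostly higher in the mutant EGFP-positive cells, by amounts that seldom passed the test. Of 44 measured genes, 2 were called, 25 had a positive difference at an unadjusted p under 0.05 and none a negative one, against 5.71% and 5.25% of all genes, and 21 were at least 2-fold higher, against 0.753% of all genes. All 3 EGFP-positive arrays lay above the EGFP-negative array for 40 (90.9%, against 32.1% of all genes), and the median difference was 0.87, between 0.74 and 0.93 over the alternatives. The chemokine receptor Ccr8 had the largest positive difference among the genes not called, reading 8.02, 8.41 and 7.70 against 5.97 (2.07 ± 0.38, limma adjusted p = 0.14). Ikzf4, the transcription factor Eos, read 8.74, 8.29 and 8.70 against 7.19 (limma adjusted p = 0.095), and Tnfrsf18, the costimulatory receptor GITR, read 11.08, 11.62 and 11.22 against 10.20 (limma adjusted p = 0.19). Ctla4, an inhibitory receptor, read 11.20, 11.53 and 10.12 against 9.26, with replicate 3 well below the other replicates. Its difference of 1.69 carried an SE of 0.87, from a spread pooled with the WT EGFP-positive arrays. The SD was 0.74 on the mutant and 1.26 on the WT EGFP-positive arrays, where replicate 2 lay lowest at 10.12.

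The list of suppressor effector genes had 0 of 15 members called by limma and a median difference of 0.80. At an unadjusted p under 0.05 it had 8 positive differences, against 5.71% of all genes. In 13 genes (86.7%, against 32.1% of all genes) all 3 arrays lay above. Ebi3, a subunit of interleukin-35 and interleukin-27, read 9.97, 10.54 and 10.17 against 8.79 (limma adjusted p = 0.099). Entpd1, the ectonucleotidase CD39, read 9.05, 9.36 and 9.27 against 7.97 (limma adjusted p = 0.16). Itgae, the integrin CD103, and Il10 followed Ctla4 in having their lowest EGFP-positive value in replicate 3, at 7.39 and 7.25, against 6.31 and 6.73 in the EGFP-negative cells. The immediate-early genes Jun and Fos were also low in replicate 3, at 5.37 and 8.71, where replicates 1 and 2 read 9.90 and 9.88 for Jun and 11.78 and 11.97 for Fos. The wide errors of Ctla4, Itgae and Il10 also pool the WT EGFP-positive arrays. Their SDs there were 1.26, 0.61 and 1.64, against 0.74, 0.58 and 0.88 on the mutant EGFP-positive arrays. What part mutant replicate 3, or any WT array, had in these errors was not tested. Ahr, the aryl hydrocarbon receptor, missed the threshold narrowly at 9.80, 9.67 and 9.56 against 8.04 (1.64 ± 0.20, limma adjusted p = 0.052).

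**Figure D2:**
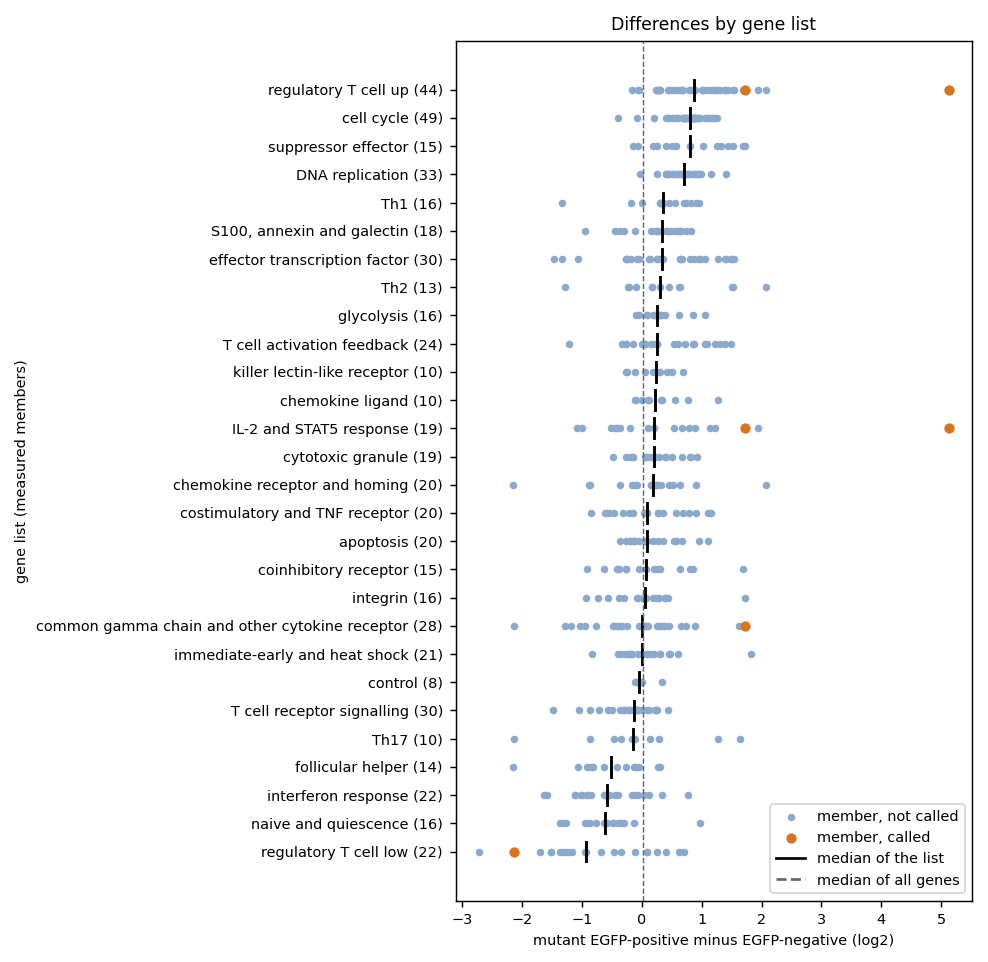
Mutant EGFP-positive minus EGFP-negative difference (log2) of every measured member of each gene list, 1 point per gene, with called genes in orange, a black bar at the list's median and a dashed line at the median of all genes. The regulatory T cell list, with a median of 0.87, and the cell cycle and suppressor effector lists, with 0.80 each, lie highest, and the list of genes low in regulatory T cells, with -0.94, lies lowest.

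Lists of genes of resting, follicular helper and interferon-exposed T cells had negative median differences, with few members called. Among 22 genes that regulatory T cells usually keep low, 1 was called and the median was -0.94. At an unadjusted p under 0.05, 11 had a negative and 1 a positive difference, against 5.25% and 5.71% of all genes. Igfbp4, a marker of naive CD4+ cells named after its value was seen, read 10.57, 10.07 and 10.58 against 12.11 (limma adjusted p = 0.062). In the list of naive and quiescence genes 0 of 16 were called by limma, 8 had a negative difference at an unadjusted p under 0.05, the median was -0.61, and 13 (81.2%) had all 3 arrays below the EGFP-negative array, against 28.0% of all genes. Lef1, a transcription factor of naive T cells, read 9.0, 8.98 and 9.30 against 10.35 (limma adjusted p = 0.11), and Bach2, which restrains effector differentiation, read 8.51, 8.06 and 8.66 against 9.71 (limma adjusted p = 0.16). Il6ra, the interleukin-6 receptor, read 7.90, 7.20 and 7.49 against 9.66, a difference of -2.13 ± 0.26 just outside the threshold (limma adjusted p = 0.052).

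Follicular helper T cells provide help to B cells, and 0 of 14 of their genes were called by limma, with a median of -0.52. At an unadjusted p under 0.05, 6 had a negative difference, against 5.25% of all genes. Their homing receptor Cxcr5 read 7.99, 6.91 and 8.33 against 9.90 in the EGFP-negative cells (limma adjusted p = 0.26), and the WT arrays stood at 7.75 and 6.44. Il21, the helper cytokine, read 8.18, 8.09 and 8.01 against 8.96 (limma adjusted p = 0.16). The lineage factor Bcl6 differed by -1.06, Ascl2 by -0.83 and Tox2 by -0.81, whereas Maf and Icos differed by 0.31 and 0.27. A second, dimmer probe set of Ascl2 was called, at 4.32, 3.95 and 4.10 against 5.93. Of 22 interferon response genes 0 were called by limma, and the median was -0.58. A negative difference at an unadjusted p under 0.05 was found for 11, against 5.25% of all genes. The antiviral enzyme gene Oas2 read 6.60, 6.76 and 6.53 against 7.65 (limma adjusted p = 0.099), and Irf7, a regulator of interferon genes, read 8.10, 7.76 and 7.91 against 8.83 (limma adjusted p = 0.16). Cxcl10, an interferon-induced chemokine, had a difference of the opposite sign, 0.77.

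Effector genes were high in both mutant fractions. Granzyme B (Gzmb) read 12.49, 12.21 and 12.15 in the EGFP-positive and 11.78 in the EGFP-negative cells, where the WT EGFP-negative array stood at 5.31. Granzyme A (Gzma) read 11.89, 11.96 and 11.37 against 10.94, also with 5.31 on the WT EGFP-negative array. Interferon gamma (Ifng) read 10.69, 10.29 and 9.88 against 9.59 and interleukin-4 (Il4) read 9.85, 9.66 and 9.73 against 9.13, while the WT EGFP-negative cells had 6.85 and 6.08. For these 4 genes all 3 EGFP-positive arrays lay above the EGFP-negative array, but the differences of 0.50 to 0.80 did not pass the test (limma adjusted p = 0.28 to 0.72). Of 16 Th1 genes and 19 cytotoxic granule genes 0 were called by limma, with medians of 0.35 and 0.20. At an unadjusted p under 0.05 they had 5 and 4 positive differences, against 5.71% of all genes. Tbx21, the Th1 factor T-bet, differed by 0.95, and its relative Eomes by -1.34. Genes of T cell receptor signalling had a median of -0.13 over 30 members with 0 called by limma. At an unadjusted p under 0.05, 6 of them had a negative difference, against 5.25% of all genes. The 8 control genes had a median of -0.05 with 0 called and 0 at an unadjusted p under 0.05.

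The WT comparison sets the cells labelled WT EGFP-positive against the single EGFP-negative array of their own genotype. A difference whose size varies between the alleles can come from either fraction, and which of them it came from was not tested. There, 273 genes were called (1.50%), 186 higher (1.02%) and 87 lower (0.478%) in the cells labelled EGFP-positive. The WT and mutant comparisons share no arrays, but they share the estimate of spread, and the genes were selected on their WT difference, so their WT median is a description. Among the 186 WT-higher genes the median difference was 1.70 for the WT and 0.52 for the mutant allele, and 160 (86.0%) had a positive mutant difference, against 52.9% of all genes. Of the 186, Il2ra alone was called higher in the mutant comparison (0.538% of the WT-higher genes, and 25% of the 4 mutant-higher genes). Among the 87 WT-lower genes the medians were -1.57 and -0.49, 75 (86.2%) had a negative mutant difference against 47.1% of all genes, and 5 were called lower in both: Rflnb, Lyst, Als2cl, Pdlim4 and Ntrk3. They make up 5.75% of the WT-lower and 41.7% of the mutant-lower genes.

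**Figure D3:**
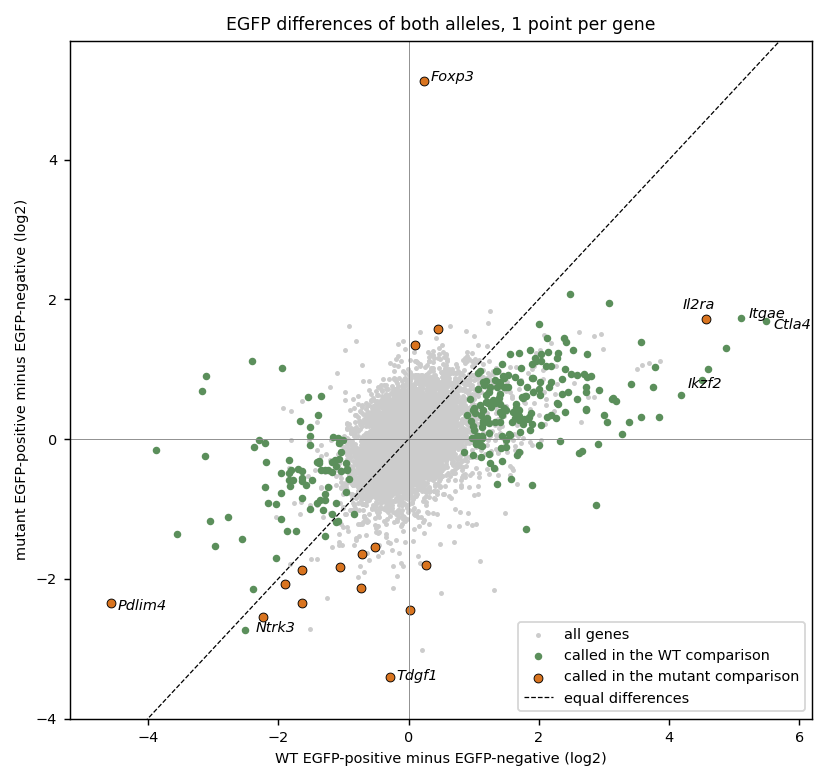
Mutant against WT difference between EGFP-positive and EGFP-negative cells (log2), 1 grey point per gene, with genes called in the WT comparison in green and the 16 genes called in the mutant comparison in orange, drawn on top. Most green points on the right lie below the dashed line of equal differences and above 0, Foxp3 stands alone at the top, and Il2ra is the 1 orange point among the genes far to the right.

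The levels behind these differences were as follows. Over the 186 WT-higher genes the median level was 8.10 on the mutant and 6.50 on the WT EGFP-negative array, while the EGFP-positive medians were 8.71 and 8.54. Over the 87 WT-lower genes the median levels were 8.21 on the mutant and 8.81 on the WT EGFP-negative array, with EGFP-positive medians of 7.67 and 6.84. The choice of genes used the WT EGFP-negative array, which fixes it low in the first set and high in the second, so these levels are a description and no comparison of the EGFP-negative cells is drawn from them.

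A test of the interaction, the mutant minus the WT difference, called 18 probe sets (0.0400%) and 12 genes (0.0660%), 4 with a larger (0.0220%) and 8 with a smaller value (0.0440%) for the mutant allele. Ikzf2, the transcription factor Helios, read 12.12, 12.11 and 12.09 in mutant EGFP-positive and 11.48 in mutant EGFP-negative cells, with 12.16 ± 0.09 (SD, n = 3) and 7.98 in the WT groups. The EGFP-positive levels of both alleles overlapped, and the differences were 0.63 for the mutant and 4.18 for the WT allele, an interaction of -3.55 ± 0.21 (limma adjusted p = 0.0044). Tnfrsf4, the costimulatory receptor OX40, had the same form: 11.81, 12.07 and 11.93 against 11.15 for the mutant, and 11.84 against 8.43 for the WT allele. Cd83, an activation antigen, stood at 9.90 in mutant and 6.10 in WT EGFP-negative cells and at 10.60, 10.98 and 10.66 in mutant EGFP-positive cells. Tiam1, an exchange factor for Rac, stood at 10.11 and 7.56 in the EGFP-negative cells of the mutant and WT alleles. For Il2ra the interaction was -2.85 ± 0.28, with 7.47 in mutant and 5.38 in WT EGFP-negative cells.

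The other interaction genes did not share 1 arrangement of levels. Cyp4f18, a cytochrome P450, read 4.51, 4.23 and 4.36 in mutant EGFP-positive and 4.29 in EGFP-negative cells, near the 4.59 of WT EGFP-negative cells, while WT EGFP-positive cells had 7.87. Arhgap20 rose from 4.17 to 7.74 in the WT comparison and read 6.42, 6.01 and 6.11 against 5.87 in the mutant one. Rragd, a Rag GTPase of amino acid sensing, had a WT difference of 2.88 and a mutant difference of -0.95, with 6.84 in mutant and 4.92 in WT EGFP-negative cells. In the other direction, Gpr171, a G protein-coupled receptor, was lower in WT EGFP-positive cells, by 1.54, and had a mutant difference of 0.60. Trgv1, a T cell receptor gamma variable segment with close relatives, had a WT difference of -2.41 and a mutant difference of 1.11, with 5.57 in mutant and 7.89 in WT EGFP-negative cells. Lrrc75b had differences of -3.13 and -0.24, with EGFP-positive means of 4.51 for the WT and 4.58 for the mutant allele and EGFP-negative values of 7.65 and 4.82. The interaction of Foxp3 was 4.90. Probe sets of Icos, Cxcr6, Tnfrsf9 and Trgv4 other than their brightest, named after their values were seen, were also called. Adjusted p-values from limma were 0.0044 for Foxp3 and Ikzf2, 0.038 for Tiam1 and 0.045 for the other 9, whose calls, like that of Tiam1, were kept in 4 to 6 of 12 or 13 alternatives. Foxp3 and Ikzf2 were called in 12 of 13, and with the title numbers as a block 0 probe sets were called by limma, 2815 having an unadjusted p under 0.05.

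**Figure D4:**
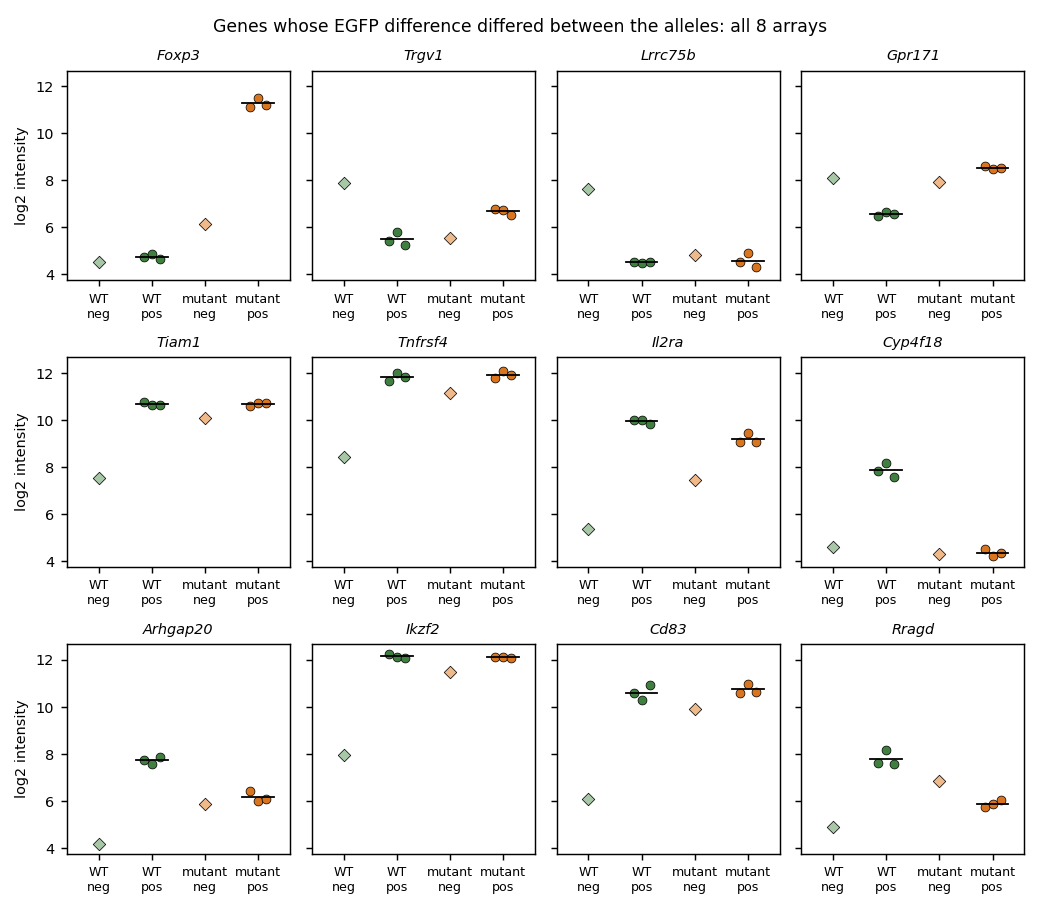
Log2 intensity of the 12 genes with an interaction on all 8 arrays, 1 panel per gene, with diamonds for the single EGFP-negative arrays, circles for the 3 EGFP-positive arrays of each allele and a bar at their mean. Ikzf2, Tnfrsf4, Cd83 and Tiam1 have like EGFP-positive levels for both alleles and a mutant EGFP-negative array far above the WT one, while Cyp4f18 is high in WT EGFP-positive cells alone.

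Markers of B, myeloid and NK cells were dim by their medians, whereas those of CD8 T cells were not. Of the markers of other cell types 0 were called by limma between the mutant fractions. The median of 9 B and plasma cell markers was 5.35 to 5.52 on the EGFP-positive arrays and 5.64 on the EGFP-negative array, that of 13 myeloid markers 5.57 to 6.29 and 5.88, and that of 4 NK cell markers 5.0 to 5.05 and 5.29. At an unadjusted p under 0.05 the B and plasma cell list had 0 positive and 1 negative difference. The myeloid list had 1 and 2 and the NK cell list 0 and 1, against 5.71% and 5.25% of all genes. Single markers lay higher on the EGFP-negative array: Tyrobp, a signalling adaptor of myeloid and NK cells, read 7.43 there against 5.93, 5.13 and 5.80, and the B cell lectin Cd22 differed by -1.07. The NK cell marker Ncr1 read 6.41 on that array against 5.57, 5.10 and 5.23. The lysozyme gene Lyz2 of myeloid cells went the other way, with a difference of 0.84 from 5.47. Genes of antigen presentation were chosen after their values were seen. Among them H2-Aa differed by -1.72, Ctsh by -1.68 and Cd74 by -0.65, while the groups overlapped for H2-Ab1. Without detection calls none of these can be given as absent. The 2 CD8 T cell markers were brighter, with a median of 6.26 to 8.12 on the EGFP-positive arrays and 8.05 on the EGFP-negative array. Of these, the coreceptor gene Cd8a read 8.50, 8.84 and 5.95 in the EGFP-positive and 8.52 in the EGFP-negative cells. Replicate 3 thus lay apart from the other 3 mutant arrays for Cd8a. What part such transcripts had in the differences above was not tested.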

How the data were processed

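Gene expression was measured on Affymetrix arrays, 1 per sample. The authors deposited linear intensity per probe set, computed with RMA (background correction, quantile normalization and probe summary) per the submitters' processing notes; its version was not stated in the sources used. Control probe sets (64 of 45101) were left out and log2 was taken without a pseudocount. RMA compresses differences at low intensity. By the platform annotation, 34945 probe sets had 1 gene symbol, 932 had several and 9160 had none; a gene was read from its brightest probe set.

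limma 3.58.1 in R 4.3.3 fitted 1 mean per group to all 8 arrays (4 residual and 3.72 prior degrees of freedom), with two-sided tests and Benjamini-Hochberg adjustment over 45037 probe sets. Scripts were tested on simulated data. Of 27025 genes with a RefSeq promoter window, motifs were counted in 250 bases.

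Named genes were a panel of 15, up to 15 called per direction, up to 4 called members or the 2 with the smallest p of each list, and up to 8 interaction genes per direction; others are said to be chosen later, or are given as list members with their difference. The comparison, the 38 lists and the panel were chosen with earlier results of these data known. Alternatives left out each EGFP-positive array, used the 4 mutant arrays alone, a block by title number, a filter at the median, an offset of 16, repeated normalization, median centring, an intensity trend with robust variance, and gene means.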

Additional observations from a re-analysis of the deposited data

Results flagged for a closer look

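The EGFP difference itself differed between the alleles, by the test of the interaction, for 18 probe sets. By gene, the mutant minus WT difference was 4.90 for Foxp3, 3.52 for Trgv1, 2.89 for Lrrc75b and 2.14 for Gpr171. It was -2.56 for Tiam1, -2.62 for Tnfrsf4, -2.85 for Il2ra, -3.21 for Cyp4f18, -3.26 for Arhgap20, -3.55 for Ikzf2, -3.67 for Cd83 and -3.82 for Rragd. Both EGFP-negative groups behind these values are single arrays. The Foxp3 value includes the low reading on the arrays labelled WT EGFP-positive. On these, 38 of 44 measured regulatory T cell genes were called higher and 0 lower than on the WT EGFP-negative array, against 1.02% and 0.478% of all genes. That list was chosen with earlier results of these data known. No group had 4 to 10 arrays, so single arrays could not be examined as outliers.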

How the results depend on the processing

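Of 1290 results for named genes under alternative settings, 1089 kept their direction and their side of the threshold, 183 lost the call, 18 gained it and 0 reversed a call. Leaving out 1 EGFP-positive array gave 4 to 84 called probe sets and 2 to 41 genes for the mutant comparison (34 and 16 with all arrays), 259 to 1193 for the WT comparison (496) and 2 to 85 for the interaction (18). The highest counts came without WT EGFP-positive replicate 2. The 4 mutant arrays alone gave 1 probe set and 1 gene. The filter on low values gave 17 probe sets, 9 genes and 3 interaction calls, the offset 4 interaction calls, the intensity trend with robust variance 64 probe sets, 30 genes and 55 interaction calls, and gene means 84 genes. The cause of these shifts was not tested.

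Both EGFP-negative arrays lie in title number run 1 and did not enter the check of pairing, which therefore cannot show a run effect on them. For the EGFP-positive arrays of both alleles the title numbers showed little pairing: the correlation of deviations was 0.12, 0.05 and -0.10 within the 3 runs. With them as a replicate block, limma called 1 probe set and 1 gene for the mutant, 83 probe sets for the WT comparison and 0 for the interaction (2815 at an unadjusted p under 0.05). With 1 EGFP-negative array per allele, small differences and those at low intensity cannot be resolved.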

Other observations

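Epas1, which encodes the hypoxia-inducible factor HIF-2 alpha and was chosen after its values were seen, was high in both mutant fractions. It read 11.67, 12.22 and 11.53 in the EGFP-positive and 10.39 in the EGFP-negative cells, against 6.80 in WT EGFP-negative cells and a mean of 6.0 in the cells labelled WT EGFP-positive. The mutant difference was 1.41 ± 0.32 (limma adjusted p = 0.23). Cxcr6, a chemokine receptor of effector T cells chosen in the same way, read 11.45, 11.51 and 11.13 against 10.46 in the mutant groups, while its WT difference was -3.11, from 9.35 to 6.23.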
